A study of Mus musculus with 18 samples.

Results

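The question addressed here is whether loss of FTSJ1 changed the tRNA held in ribosomes in the same way as the tRNA of the whole tissue in mouse brain. For each tRNA the KO effect, the difference between knockout (KO) and wild-type (WT) mice, was taken in ribosome-contained tRNA and in total tRNA, and the second was subtracted from the first. The comparison used 12 of the 18 libraries of the series, 3 of each kind from each genotype, and left out the 6 libraries of tRNA fragments. A row of the authors' table is 1 tRNA name with its anticodon, and 105 of the 147 rows had a mean of at least 10 reads over the 12 libraries and were tested. The other 42 rows held 0.016% of the reads. Reads were also summed to anticodon families, of which 49 of 54 were tested, and to amino acids, of which 22 of 23 groups were tested, with the initiator methionine tRNA (iMet) and the selenocysteine tRNA (SeC) counted as groups of their own.

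Both groups were male C57BL/6 mice aged 8 weeks, 3 WT and 3 with a knockout of Ftsj1, and no treatment was given. The labels name the same mouse for a total tRNA library, made from RNA of the tRNA size on a gel, and for a ribosome-contained library, made after ribosome profiling of the brain. The Ftsj1 allele, and whether it is deleted in all cells, are not described in the sources used here. Total tRNA libraries held 1505291 to 2000422 reads and ribosome-contained libraries 406764 to 672127 reads. Ftsj1 mRNA lies outside these libraries, so the genotype could not be checked against it. Brain is a mixed tissue, and fewer cells of a type and less tRNA per cell cannot be told apart in these bulk samples.

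A tRNA carries its amino acid to the ribosome and pairs with a codon through its anticodon, whose first base, the wobble base, can be modified and can read more than 1 codon. FTSJ1 is a methyltransferase that acts on ribose 2′-hydroxyls in the anticodon loop, among them that of the wobble nucleotide of the phenylalanine tRNA, and mutations of the human gene cause X-linked intellectual disability. Ribosomes hold tRNAs that are decoding, so the make-up of their tRNA depends on codon use and on the pace of decoding as well as on supply. Anticodons are written below in DNA letters, 5′ to 3′, as in the authors' table.

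For each mouse the share of a tRNA among ribosome-contained reads was divided by its share among total tRNA reads. A ratio above 1 means that the tRNA made up more of the ribosome-contained than of the total tRNA reads of that mouse. The KO effect in ribosomes minus that in total tRNA is the log2 difference of these ratios between KO and WT mice, tested by edgeR's quasi-likelihood method. Each mouse was a block, and p-values were adjusted by Benjamini-Hochberg with a threshold of 0.05. Below, a tRNA is called higher or lower in KO ribosomes relative to total tRNA only where it passed that test. An exact permutation test of 3 mice against 3 cannot give a p below 0.1, and that was its value wherever the ratios of the groups did not overlap.

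Phenylalanine tRNA was less depleted in KO ribosomes than in KO total tRNA. The families Asp-GTC (aspartate), His-GTG (histidine), Ser-AGA (serine) and Leu-TAG (leucine) were also higher in KO ribosomes relative to total tRNA. Lys-CTT (lysine), Thr-TGT and Thr-CGT (threonine), Cys-GCA (cysteine), Arg-TCG (arginine), Gly-ACC and Gly-TCC (glycine) were lower. Among the 22 amino acids, 4 were higher (18.2%) and 2 lower (9.09%), 27.3% in all, with a median log2 difference of -0.02. Of the 49 families, 5 were higher (10.2%) and 7 lower (14.3%), 24.5% in all, with a median of -0.04. Of the 105 rows, 6 were higher (5.71%) and 16 lower (15.2%), 21.0% in all, with a median of -0.18. The balance of directions among rows depended on scaling. With TMM factors computed within each library kind, 9 rows were higher and 7 lower, 56.2% higher against 27.3% with scaling by total reads, and the median of all rows was -0.02. With no spike-in, each value is set against the rest of its own library. Before adjustment, 31 rows (29.5%), 16 families (32.7%) and 9 amino acids (40.9%) had p under 0.05. The 3 KO ratios were all above the 3 WT ratios in 11 rows (10.5%), 9 families (18.4%) and 5 amino acids (22.7%). They were all below in 24 rows (22.9%), 10 families (20.4%) and 6 amino acids (27.3%).

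**Figure D1:**
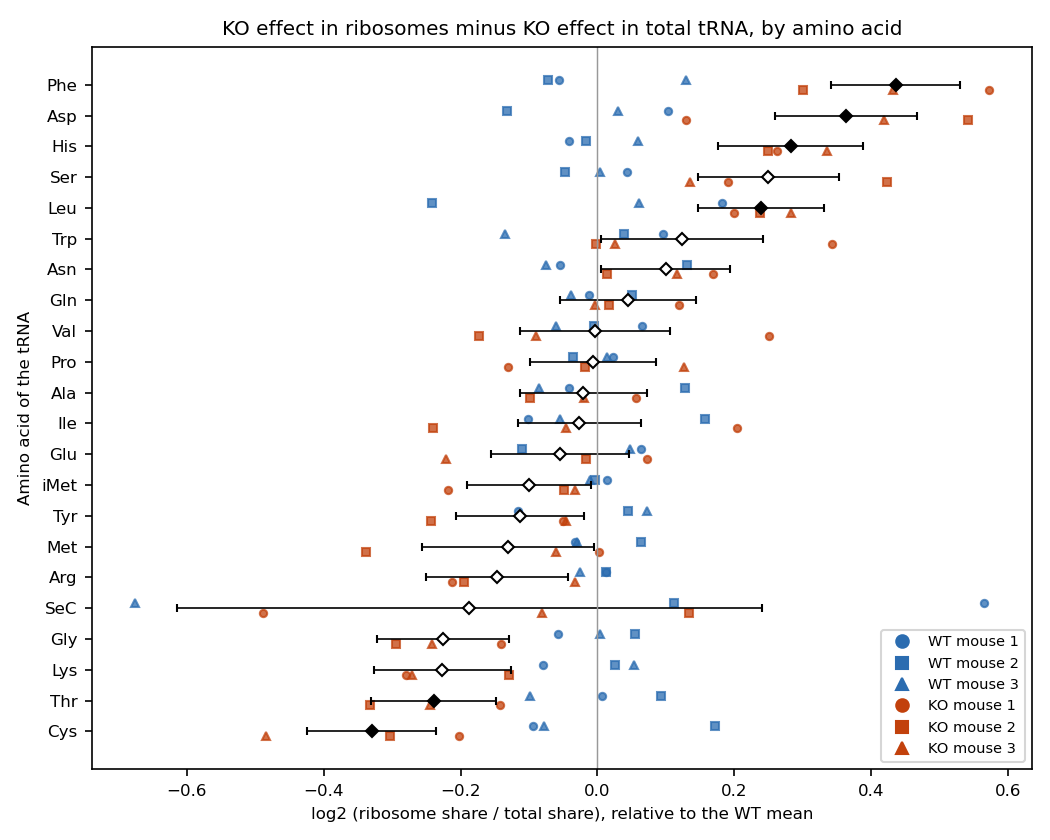
Log2 ratio of ribosome to total share relative to the WT mean (x axis) for each of the 22 amino acid groups (y axis), with 1 coloured point per mouse, WT in blue and KO in orange. Diamonds are the log2 differences from the edgeR fit with bars of 1 SE, filled where the adjusted p was below 0.05; Phe is the highest at 0.44 and Cys the lowest at -0.33.

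Phe2-GAA is the only phenylalanine row and reads the phenylalanine codons UUC and UUU. Its share of total tRNA was 2.55%, 2.72% and 2.48% in WT mice 1 to 3, and 1.17%, 1.10% and 0.989% in KO mice 1 to 3. Its share of ribosome-contained tRNA was 3.56%, 3.75% and 3.93% in the WT mice, and 2.53%, 1.96% and 1.93% in the KO mice. Every KO library was below every WT library of its kind, but the gap was narrower in ribosomes. The log2 KO/WT share was -1.25 in total tRNA and -0.82 in ribosome-contained tRNA. The ratio of ribosome to total share was 1.39, 1.38 and 1.58 in the WT mice and 2.15, 1.78 and 1.95 in the KO mice. All 3 KO ratios were above all 3 WT ratios. The log2 difference was 0.44 (SE 0.10, adjusted p = 0.000672 over rows in edgeR), so that the ratio was 1.35-fold higher in KO mice. The row kept its call without each of the 6 mice in turn, with adjusted p from 0.00221 to 0.0197 in edgeR. With limma on the log2 ratios of each mouse the row's call ended. At the level of amino acids the call ended without KO mouse 3 (adjusted p = 0.107 in edgeR) and with no mouse block.

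The other tRNAs on the list of FTSJ1 wobble targets did not pass. The list holds Phe-GAA, Trp-CCA, Leu-CAA and Leu-TAA, from knowledge of FTSJ1 and its yeast homologue, and 1 of its 4 families was higher and none lower, against 10.2% and 14.3% of all families, with a median log2 difference of 0.14. Trp1-CCA, the tryptophan tRNA, had ratios of 0.709, 0.681 and 0.604 in WT and 0.841, 0.662 and 0.675 in KO mice, which overlapped. Its log2 difference was 0.12 (SE 0.10, adjusted p = 0.419 in edgeR). Leu3-CAA, which reads the leucine codon UUG, had ratios of 1.03, 1.10 and 1.07 in WT and 1.12, 1.18 and 1.28 in KO mice. These did not overlap, but the log2 difference of 0.16 did not pass (SE 0.12, adjusted p = 0.391 in edgeR). Leu6-TAA and the scarce Leu9-TAA, which read UUA, were at 0.12 (SE 0.18) and -0.09 (SE 0.59). In the wider FTSJ1 list of 12 families, which adds tRNAs reported as targets at another anticodon-loop position, 1 was higher (Phe-GAA) and 2 lower (Cys-GCA and Arg-TCG), with a median of 0.07. Over the 26 tested rows of that list 1 was higher and 5 lower, against 5.71% and 15.2% of all rows. Their median of -0.24 had the opposite sign to that of the list's families, beside -0.18 for all rows and -0.04 for all families.

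**Figure D2:**
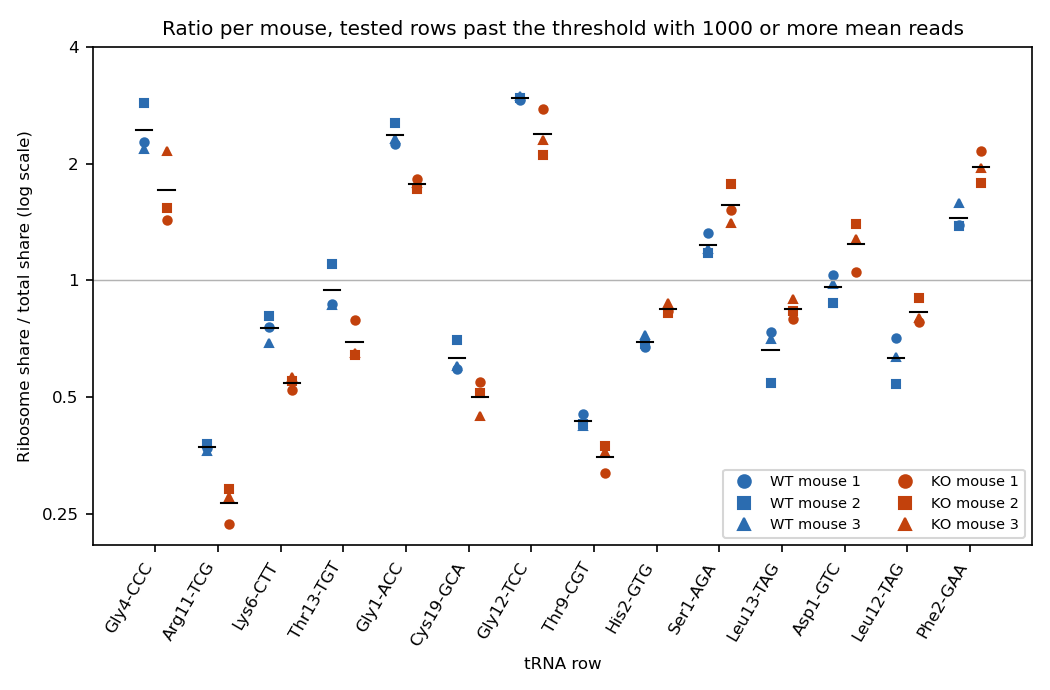
Ratio of ribosome to total share (y axis, log scale) in each of the 3 WT (blue) and 3 KO (orange) mice for the 14 rows past the threshold with a mean of at least 1000 reads (x axis), with a bar at each group mean. Phe2-GAA lies between 1.38 and 1.58 in WT and between 1.78 and 2.15 in KO mice, while Arg11-TCG lies between 0.364 and 0.378 in WT and between 0.236 and 0.290 in KO mice.

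Arginine and lysine rows had the smallest adjusted p. Arg11-TCG, which reads the arginine codon CGA, made up 1.88%, 1.96% and 2.01% of total tRNA in WT and 1.94%, 1.57% and 1.69% in KO mice. In ribosomes it made up 0.696%, 0.740% and 0.732% in WT and 0.457%, 0.455% and 0.466% in KO mice. The groups overlapped in total tRNA and were apart in ribosomes. Its ratio was 0.370, 0.378 and 0.364 in WT and 0.236, 0.290 and 0.276 in KO mice, a log2 difference of -0.48 (SE 0.10, adjusted p = 0.000392 in edgeR). Arg12-TCG, the other row of that family, had a log2 difference of -0.24 that did not pass (SE 0.10, adjusted p = 0.0824 in edgeR). The Arg-TCG family was lower at -0.30 (SE 0.10, adjusted p = 0.024 in edgeR). This family call held in 1 of the 6 fits with a mouse left out, and ended under either TMM scaling and with limma. Arginine as a whole was at -0.15 (SE 0.10, adjusted p = 0.356 in edgeR).

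Lys6-CTT, which reads the lysine codon AAG, held 89.3% of the reads of its family. Its total shares were 1.89%, 1.81% and 1.90% in WT and 2.21%, 1.86% and 2.06% in KO mice, and its ribosome shares were 1.43%, 1.46% and 1.31% in WT and 1.15%, 1.02% and 1.16% in KO mice. The KO mice were below the WT mice in ribosomes only. The ratio was 0.759, 0.808 and 0.691 in WT and 0.521, 0.549 and 0.564 in KO mice, a log2 difference of -0.46 (SE 0.10, adjusted p = 0.000392 in edgeR). The Lys-CTT family was at -0.43 (SE 0.10, adjusted p = 0.0049 in edgeR). Lysine as a whole, with its TTT anticodon included, was at -0.23 and did not pass (SE 0.10, adjusted p = 0.0642 in edgeR). The calls of Arg11-TCG and Lys6-CTT held without each of the 6 mice in turn and ended with TMM within each library kind and with limma on the log2 ratios of each mouse.

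Both threonine families that passed were lower. Thr13-TGT, which reads ACA and is the single row of Thr-TGT, had ratios of 0.868, 1.10 and 0.863 in WT and 0.790, 0.642 and 0.649 in KO mice. WT mouse 2 was the highest and the groups were apart. The log2 difference was -0.44 (SE 0.10, adjusted p = 0.000672 in edgeR). The call of Thr13-TGT ended when either WT mouse 2 or KO mouse 2 was left out (edgeR adjusted p of 0.084 and 0.0854). It also ended with TMM within each library kind and with limma. Thr9-CGT, which reads ACG, had ratios of 0.452, 0.427 and 0.421 in WT and 0.319, 0.374 and 0.361 in KO mice. Its log2 difference was -0.31 (SE 0.10, adjusted p = 0.0192 in edgeR), and its family Thr-CGT was at -0.30 (SE 0.10). The calls of Thr9-CGT and Thr-CGT each held in 1 of the 6 fits with a mouse left out. Both ended under either TMM scaling and with limma. That of Thr9-CGT also ended with DESeq2, DESeq2 size factors, no mouse block and no filter. Thr-AGT, the most abundant threonine family with a mean of 31859 reads of 61271 for threonine, did not pass. It was at -0.12 (SE 0.10, adjusted p = 0.453 in edgeR), and its ratios overlapped between groups. Threonine as a whole was lower at -0.24 (SE 0.09, adjusted p = 0.0401 in edgeR), a call that held in 1 of the 6 fits with a mouse left out.

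Cysteine tRNA was lower as an amino acid and in its main row. Cys19-GCA, with 94.9% of cysteine reads, reads the cysteine codons UGC and UGU. Its total shares were 3.08%, 2.74% and 2.90% in WT and 3.18%, 2.99% and 3.10% in KO mice, and its ribosome shares were 1.82%, 1.92% and 1.74% in WT and 1.74%, 1.53% and 1.38% in KO mice. Its ratios of 0.590, 0.701 and 0.601 in WT were all above those of 0.547, 0.512 and 0.446 in KO mice. The log2 difference was -0.33 (SE 0.10, adjusted p = 0.0144 in edgeR), with the same size for the amino acid (SE 0.09, adjusted p = 0.00547 in edgeR). The row's call ended when WT mouse 2, KO mouse 2 or KO mouse 3 was left out (edgeR adjusted p of 0.17, 0.0865 and 0.122). It also ended with TMM over the 12 libraries, TMM within each library kind, DESeq2, DESeq2 size factors, limma and no mouse block.

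Among glycine tRNAs, 1 row was lower in each of 3 anticodon families. Gly12-TCC, which reads GGA, had ratios of 2.92, 2.95 and 2.99 in WT and 2.77, 2.10 and 2.30 in KO mice, a log2 difference of -0.31 (SE 0.10, adjusted p = 0.0182 in edgeR). Gly1-ACC, which has the anticodon complementary to GGU, had ratios of 2.25, 2.55 and 2.32 in WT and 1.82, 1.73 and 1.78 in KO mice, a log2 difference of -0.41 (SE 0.14, adjusted p = 0.0192 in edgeR). Gly4-CCC, which reads GGG, had ratios of 2.27, 2.87 and 2.19 in WT and 1.43, 1.54 and 2.16 in KO mice, a log2 difference of -0.53 (SE 0.18, adjusted p = 0.0207 in edgeR). The ratios of these 3 rows did not overlap between groups, with KO mouse 3 close to WT mouse 3 for Gly4-CCC. With a mouse left out the call of Gly12-TCC held in 1 of 6 fits, that of Gly1-ACC in 2 and that of Gly4-CCC in 2. All 3 ended under either TMM scaling and with limma. The call of Gly12-TCC also ended with DESeq2, DESeq2 size factors and no mouse block, and that of Gly4-CCC with no mouse block. Gly4-CCC held 19.4% of the reads of its family. Gly3-CCC, with 77.1% of them, was at -0.29 and did not pass (SE 0.12, adjusted p = 0.0657 in edgeR). The Gly-CCC family was at -0.31 and did not pass (SE 0.12, adjusted p = 0.0716 in edgeR), and its ratios overlapped between groups. Glycine tRNAs as a whole made up 9.31% ± 0.307 of WT and 8.22% ± 0.225 of KO ribosome-contained reads (SD, n = 3 mice each). Their log2 difference of -0.23 did not pass (SE 0.10, adjusted p = 0.058 in edgeR).

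Aspartate tRNA was the most abundant of the tRNAs that were higher. Asp1-GTC reads the aspartate codons GAC and GAU and, in mammals, carries queuosine, a modified guanosine, at the wobble base. It made up 9.40%, 9.12% and 9.22% of total tRNA in WT and 7.22%, 8.07% and 9.17% in KO mice. In ribosomes it made up 9.69%, 7.98% and 9.03% in WT and 7.58%, 11.3% and 11.8% in KO mice. KO mouse 1 was the lowest of the 6 in both kinds of library, and KO mice 2 and 3 were the highest in ribosomes. The ratio was 1.03, 0.875 and 0.980 in WT and 1.05, 1.40 and 1.28 in KO mice, so that the groups were apart by the narrow gap between WT mouse 1 and KO mouse 1. The log2 difference was 0.36 (SE 0.12, adjusted p = 0.0148 in edgeR), and the call ended when WT mouse 2, WT mouse 3 or KO mouse 2 was left out (edgeR adjusted p of 0.162, 0.0528 and 0.206). That call also ended with TMM over the 12 libraries, DESeq2, limma and no mouse block.

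The histidine tRNA carries queuosine too. His2-GTG had ratios of 0.675, 0.686 and 0.724 in WT and 0.833, 0.826 and 0.876 in KO mice, which were apart. Its log2 difference was 0.28 (SE 0.10, adjusted p = 0.0304 in edgeR), and the call held in 1 of the 6 fits with a mouse left out. That call also ended with TMM over the 12 libraries, limma, no mouse block and no filter. The other queuosine families did not pass, with Asn-GTT (asparagine) at 0.10 (SE 0.10) and Tyr-GTA (tyrosine) at -0.11 (SE 0.10). The 4 queuosine families thus had 2 higher and none lower, against 10.2% and 14.3% of all families, with a median of 0.19. Summed over their rows, the ratio was 1.07, 1.08 and 1.09 in WT and 1.18, 1.23 and 1.26 in KO mice. Without aspartate it was 1.10, 1.24 and 1.18 in WT and 1.25, 1.12 and 1.23 in KO mice, and the groups overlapped.

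Serine and leucine tRNAs share a long variable arm with SeC tRNA. Of the 10 long-arm families the 9 of serine and leucine had a log2 difference above 0 and SeC-TCA did not, against 20 of all 49 families above 0. Ser1-AGA, whose wobble adenosine is read as inosine, made up 3.29%, 3.35% and 3.47% of total tRNA in WT and 3.10%, 3.21% and 3.69% in KO mice. In ribosomes it made up 4.37%, 3.94% and 4.18% in WT and 4.73%, 5.69% and 5.20% in KO mice. Total shares overlapped and ribosome shares did not. The ratio was 1.33, 1.17 and 1.21 in WT and 1.52, 1.77 and 1.41 in KO mice, a log2 difference of 0.34 (SE 0.11, adjusted p = 0.0144 in edgeR). The call ended without WT mouse 2, WT mouse 3 or KO mouse 2 (adjusted p = 0.131, 0.0648 and 0.162 in edgeR). That call also ended with TMM over the 12 libraries, limma and no mouse block. Serine as a whole was at 0.25 and did not pass (SE 0.10, adjusted p = 0.0533 in edgeR).

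Leu-TAG, which reads the leucine codon CUA, was higher in both of its tested rows. Leu12-TAG had ratios of 0.712, 0.541 and 0.635 in WT and 0.779, 0.901 and 0.802 in KO mice, a log2 difference of 0.40 (SE 0.13, adjusted p = 0.0144 in edgeR). Leu13-TAG had ratios of 0.738, 0.545 and 0.706 in WT and 0.796, 0.836 and 0.897 in KO mice, a log2 difference of 0.36 (SE 0.13, adjusted p = 0.0328 in edgeR). In both rows WT mouse 2 was the lowest and the groups did not overlap. The Leu-TAG family was at 0.38 (SE 0.11, adjusted p = 0.024 in edgeR), a call that ended when either WT mouse 2 or KO mouse 2 was left out (edgeR adjusted p of 0.144 and 0.122). The family call also ended with TMM within each library kind, DESeq2 size factors and limma. The call of Leu12-TAG ended without WT mouse 2 or KO mouse 2, and that of Leu13-TAG without any 1 of the 6 mice. Both row calls also ended with limma and with no mouse block, and that of Leu13-TAG with no filter.

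Of the 10 families with a long variable arm, 2 were higher (Ser-AGA and Leu-TAG) and none lower, against 10.2% and 14.3% of all families, with a median log2 difference of 0.20. Ser-TGA was at 0.21 (SE 0.10), Leu-CAG at 0.23 (SE 0.10), Leu-AAG at 0.25 (SE 0.12), Ser-GCT at 0.19 (SE 0.10) and Ser-CGA at 0.09 (SE 0.10), none past the threshold. The KO ratios were all above the WT ratios in 6 of the 10 families, where this held for 18.4% of all families. Summed over the long-arm rows the ratio was 1.01, 0.876 and 0.964 in WT and 1.08, 1.21 and 1.08 in KO mice, which did not overlap. SeC-TCA, the tRNA of the selenium-containing amino acid, was scarce in ribosomes in both genotypes. It made up 0.478% ± 0.0184 of total and 0.0129% ± 0.00506 of ribosome-contained reads in WT mice (SD, n = 3). In KO mice the shares were 0.541% ± 0.0632 and 0.0128% ± 0.00351 (SD, n = 3). Its log2 difference was -0.19 (SE 0.26 in the family fit).

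For most called abundant tRNAs other than Phe, the larger part of the difference lay in the ribosome-contained libraries. Exceptions among families were Asp-GTC and Thr-CGT. Their log2 KO/WT shares were -0.19 and 0.19 in total tRNA, and 0.18 and -0.11 in ribosomes. The row Gly4-CCC was at 0.39 in total tRNA for a log2 difference of -0.53. For the 5 called higher rows other than Phe2-GAA, the log2 KO/WT share ran from -0.19 (Asp1-GTC) to 0.25 (Leu12-TAG) in total tRNA and from 0.18 (Asp1-GTC) to 0.65 (Leu12-TAG) in ribosomes. For the 8 called lower rows with a mean of at least 1000 reads, it ran from -0.17 (Arg11-TCG) to 0.39 (Gly4-CCC) in total tRNA and from -0.65 (Arg11-TCG) to -0.10 (Thr9-CGT) in ribosomes. These values describe the means of 3 mice and were not tested here. Phe2-GAA, at -1.25 in total tRNA, was the lowest of the called rows there.

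**Figure D3:**
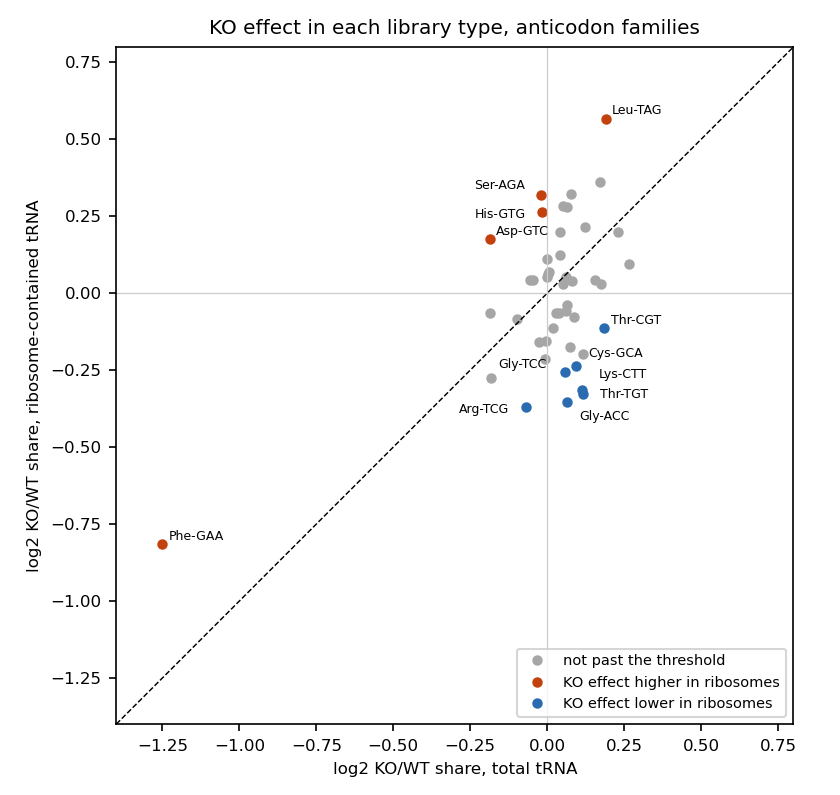
Log2 KO/WT share in total tRNA (x axis) against that in ribosome-contained tRNA (y axis) for the 46 anticodon families with a mean of at least 1000 reads, with the line of equal effect dashed. Phe-GAA lies at -1.25 and -0.82, above the line, and the 7 families called lower lie below it.

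Rows of one family did not always share a sign. Of the 29 families with at least 2 tested rows, 17 had all of them on the same side of 0. Of the 16 families with at least 2 rows of 1000 or more mean reads, 12 had all such rows on the same side of 0, where 40 of the 65 rows of that abundance lay below 0. The median range within these 16 families was 0.12 on the log2 scale. The widest of these ranges was 0.53, in Ala-TGC. How the counting treated reads that fit more than 1 row is unknown from the sources used here, so reads may have moved between rows of near-identical sequence.

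Rows were also described by abundance, without a test of scarce against abundant rows. Among the 65 rows with a mean of at least 1000 reads, 6 were higher and 8 lower, with a median of -0.09, where 15.2% of all rows were lower. Among the 40 rows below 1000 mean reads none was higher and 8 were lower, with a median of -0.61, and 35 of the 40 had a log2 difference below 0. Together these 40 rows made up 0.313% ± 0.0157 of WT and 0.405% ± 0.0156 of KO total tRNA reads (SD, n = 3 mice each). In ribosomes they made up 0.726% ± 0.197 in WT and 0.646% ± 0.132 in KO mice. Their summed ratio was 1.99, 3.08 and 1.91 in WT and 1.39, 1.43 and 1.96 in KO mice, and the groups overlapped.

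The 8 scarce rows called lower were Ala21-CGC, Ala22-CGC, Ala23-CGC, Ala24-CGC, Ala10-AGC, Glu5-CTC, Gln6-CTG and Cys17-GCA, minor rows of alanine, glutamate, glutamine and cysteine families. Ala22-CGC had ratios of 5.18, 5.63 and 2.88 in WT and 1.30, 1.23 and 1.77 in KO mice. Its log2 difference was -1.62 (SE 0.38, adjusted p = 0.000672 in edgeR), a 3.07-fold lower ratio. The groups did not overlap in its ratio, nor in its total share of 0.00611%, 0.00995% and 0.0103% in WT and 0.0144%, 0.0186% and 0.0211% in KO mice. Its ribosome shares of 0.0317%, 0.0560% and 0.0297% in WT and 0.0187%, 0.0229% and 0.0373% in KO mice did overlap.

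Glu5-CTC had ratios of 4.20, 5.83 and 2.55 in WT and 1.46, 1.33 and 1.84 in KO mice, a log2 difference of -1.37 (SE 0.34, adjusted p = 0.00144 in edgeR). The calls of Ala22-CGC and Glu5-CTC ended without KO mouse 2 (adjusted p = 0.0721 and 0.0865 in edgeR). The other scarce alanine rows and Gln6-CTG lay between -1.57 and -1.30, with SE of 0.52 for Ala10-AGC and 0.53 for Gln6-CTG. With a mouse left out, the calls of Ala21-CGC, Ala23-CGC and Ala24-CGC each held in 3 of 6 fits. Those of Ala10-AGC and Gln6-CTG each held in 2 of 6. All calls of scarce rows ended with limma on the log2 ratios of each mouse. Summed over the 8 rows, the total share was 0.0308%, 0.0428% and 0.0462% in WT and 0.0621%, 0.0786% and 0.0811% in KO mice. The summed ribosome share was 0.164%, 0.384% and 0.216% in WT and 0.123%, 0.155% and 0.232% in KO mice. WT mouse 2 had the highest ribosome share, and the KO mice were above the WT mice in total tRNA. These rows were picked by their test, so their sum is a description.

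The 5 alanine rows among them held 1.29% of alanine reads, and alanine as a whole was at -0.02 (SE 0.09). Cys17-GCA had the largest log2 difference, -3.02 (SE 1.05, adjusted p = 0.0218 in edgeR), and rests on few reads. It had 1, 0 and 0 reads in WT total libraries, 15 reads over the KO total libraries, and a KO-to-WT ratio of total share of 12.8 (95% exact interval 1.98 to 540, counting error only). Its fitted log2 difference ran from -4.68 without WT mouse 1 to -1.70 without WT mouse 2, the ends of its range over the settings tried. The call of Cys17-GCA ended when WT mouse 2, KO mouse 2 or KO mouse 3 was left out (edgeR adjusted p of 0.534, 0.138 and 0.0535). It also ended under either TMM scaling and with DESeq2, limma, no mouse block and no filter.

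**Figure D4:**
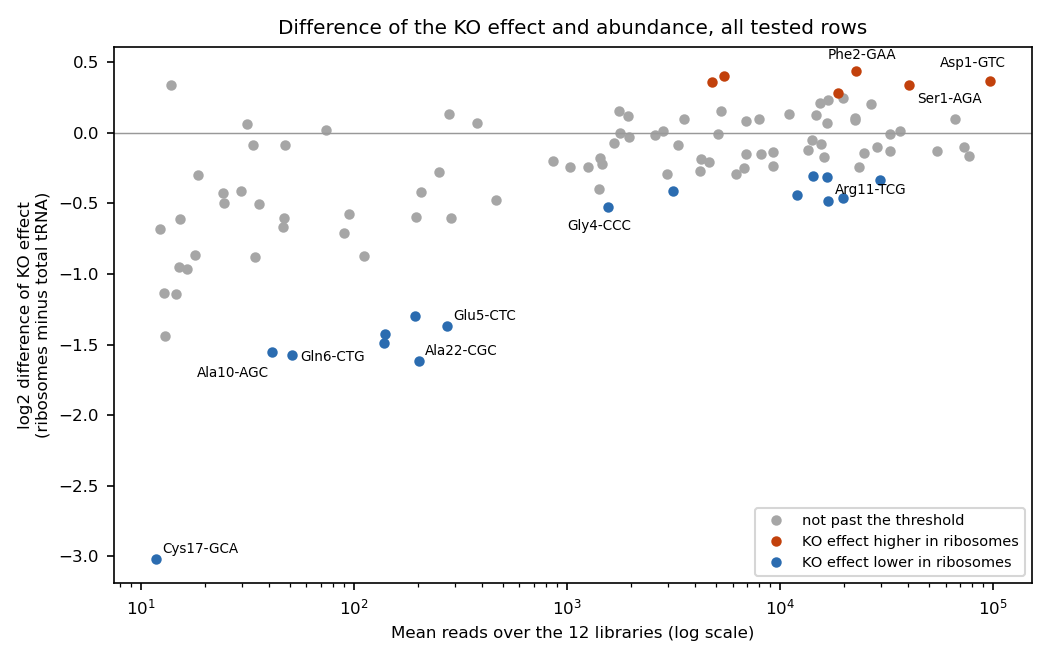
Log2 difference of the KO effect (y axis) against mean reads over the 12 libraries (x axis, log scale) for the 105 tested rows. The 40 rows below 1000 mean reads have a median of -0.61 and the 65 rows at or above it a median of -0.09.

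The remaining lists are described by their counts, against 12 of all 49 families called (24.5%). Of the 8 families with a wobble inosine 1 was higher (Ser-AGA) and none lower, with a median of 0.00. Of the 14 families with a wobble uridine, SeC-TCA left out, 1 was higher (Leu-TAG) and 3 lower (Thr-TGT, Arg-TCG and Gly-TCC), with a median of -0.09. Of the 3 families methylated by DNMT2, a cytosine methyltransferase of the anticodon loop, 1 was higher (Asp-GTC) and none lower. Neither methionine family passed, and initiator and elongator methionine tRNAs were at -0.10 (SE 0.09) and -0.13 (SE 0.13) as amino acid groups. Arg-TCT, which includes an arginine tRNA enriched in brain, did not pass. The amino acids Ile, Ala, Pro and Val lay within 0.03 of 0, with SE of 0.09 to 0.11.

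Grouped by the first base of the anticodon as written in the table, a grouping chosen after the values were seen and described here without a test, the summed ratios of the groups did not overlap for C, G or T. For C they were 0.962, 0.942 and 0.925 in WT and 0.899, 0.892 and 0.900 in KO mice. For T they were 0.796, 0.797 and 0.814 in WT and 0.757, 0.746 and 0.722 in KO mice. Without lysine the T ratios were 0.913, 0.899 and 0.895 in WT and 0.892, 0.826 and 0.829 in KO mice. They were still apart, but only by the narrow gap between WT mouse 3 and KO mouse 1. The called families Thr-TGT, Arg-TCG, Gly-TCC and Leu-TAG stayed in that sum, and no tRNA was left out for C. For G they were 1.10, 1.13 and 1.14 in WT and 1.18, 1.21 and 1.21 in KO mice, and without Asp and Phe they were 1.09, 1.22 and 1.16 in WT and 1.17, 1.11 and 1.14 in KO mice. The G ratios overlapped once those abundant tRNAs were left out. For A they were 1.12, 1.10 and 1.09 in WT and 1.19, 1.11 and 1.14 in KO mice, which overlapped.

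**Figure D5:**
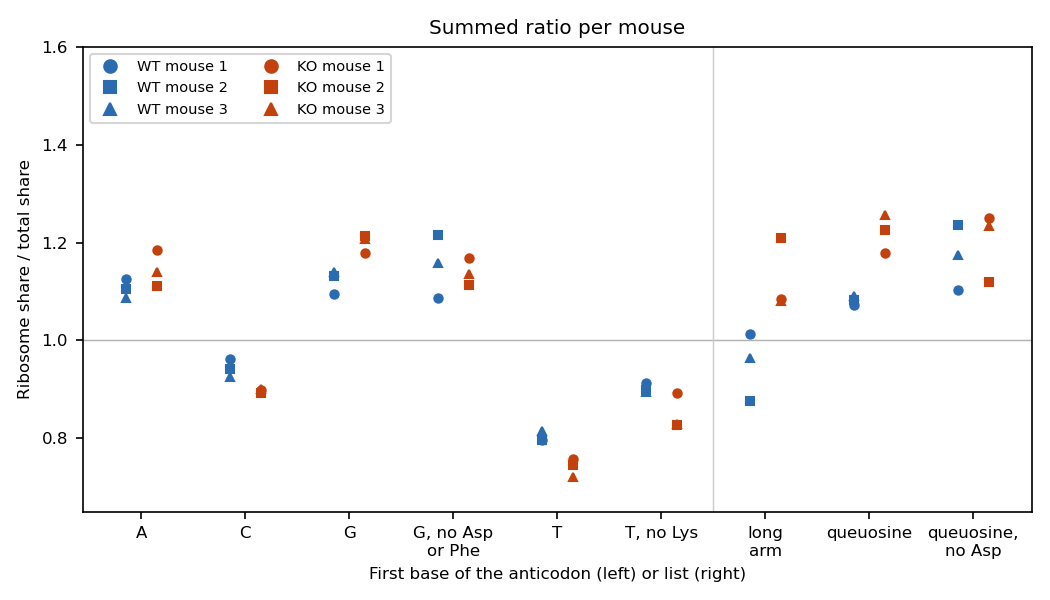
Ratio of ribosome to total share (y axis) in each of the 3 WT (blue) and 3 KO (orange) mice, summed over rows that share the first anticodon base (left) or belong to a list (right). Long-arm tRNAs lie between 0.876 and 1.01 in WT and between 1.08 and 1.21 in KO mice.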

How the data were processed

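The authors deposited raw counts, named read numbers per the file headers, in 1 table of 147 tRNA rows by 18 libraries. The submitters' processing notes name Bowtie2. Which version, settings, tRNA reference and genome build were used, and where a read fitting more than 1 tRNA was counted, is not given in the sources used here. Per the labels' protocols, AlkB, a demethylase of bases, was applied before reverse transcription. Modifications that still block the enzyme lower a count without any change in amount. No molecular identifiers mark PCR copies. A ribosome-contained column headed K3 was taken as KO mouse 3.

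Rows with a mean of at least 10 reads over the 12 libraries were kept. Cys17-GCA (11.8 reads) and Glu3-CTC (12.3) lay just inside and Cys1-ACA (9.92) and Lys24-TTT (9.0) just outside. The fit used edgeR 4.0.16 under R 4.3.3 and its quasi-likelihood F statistic, with counts scaled by total tRNA reads, with terms for mouse, library kind and library kind by genotype (4 residual degrees of freedom). Each SE of a log2 difference was obtained from the test, as the absolute log2 difference divided by the square root of F. Such an SE can be inflated where the difference is very small, as for Tyr5-GTA (4.7e-05, SE 3.2). The common biological coefficient of variation was 0.0942 for rows, 0.0656 for families and 0.0602 for amino acids. The prior degrees of freedom were infinite for rows and amino acids, so that the spread of each was taken wholly from the trend over all, and 18.1 for families. Shares and ratios were computed with pandas 2.3.3, permutation tests with SciPy 1.17.1 and plots with matplotlib 3.10.9. Alternatives used DESeq2 1.42.0 and limma 3.58.1. The procedure was tested on simulated data.

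Libraries were paired because the labels name the same mouse for both. Deviations from the group means over the 79 rows of at least 100 mean reads correlated between the libraries of a mouse at -0.356 to 0.475, above 0.1 in 4 of 6 mice. Between different mice of a genotype they ran from -0.558 to 0.564, so the pairing rests on the labels. The 6 WT and KO animals are separate mice. Rows named are those with the largest differences past the threshold in each direction, the rows of the FTSJ1 wobble list, rows sharing an anticodon with these, and the strongest of each of 9 tRNA lists. Lys6-CTT, Gly12-TCC, Gly1-ACC and Thr9-CGT fell outside that rule and were named after their values were seen. The comparison, members and lists were chosen with earlier results of these data known. No tRNA sequence is printed, and no genome coordinates, since a mature tRNA comes from many gene copies.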

Additional observations from a re-analysis of the deposited data

Results flagged for a closer look

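Every result below was picked because the KO effect differed between ribosome-contained and total tRNA by the edgeR test of that difference. Values are log2 differences, and no cause was tested.

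Among amino acids these were Phe at 0.44, Asp at 0.36, His at 0.28, Leu at 0.24, Thr at -0.24 and Cys at -0.33. Of the 16 other settings, the call held in 14 for Phe, 12 for Cys, 9 for Asp, 7 for Thr, 6 for His and 3 for Leu. With a mouse left out, the calls of Leu, His and Thr each held in 1 of 6 fits. Without WT mouse 2, Leu was at 0.12 (adjusted p = 0.483 in edgeR).

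Among families the higher ones were Phe-GAA at 0.44, Leu-TAG at 0.38, Asp-GTC at 0.36, Ser-AGA at 0.34 and His-GTG at 0.28. The lower ones were Thr-TGT at -0.44, Lys-CTT at -0.43, Gly-ACC at -0.41, Cys-GCA at -0.33, Gly-TCC at -0.32, Arg-TCG at -0.30 and Thr-CGT at -0.30. Of the 16 other settings, the call held in 15 for Phe-GAA, 11 for Leu-TAG, 11 for Ser-AGA, 9 for His-GTG and 6 for Asp-GTC. For the lower families it held in 15 for Lys-CTT, 13 for Thr-TGT, 12 for Gly-ACC, 10 for Cys-GCA and 9 for Gly-TCC. It held in 8 each for Arg-TCG and Thr-CGT.

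Among rows the higher ones were Phe2-GAA at 0.44, Leu12-TAG at 0.40, Asp1-GTC at 0.36, Leu13-TAG at 0.36, Ser1-AGA at 0.34 and His2-GTG at 0.28. The lower rows with at least 1000 mean reads were Gly4-CCC at -0.53, Arg11-TCG at -0.48, Lys6-CTT at -0.46, Thr13-TGT at -0.44, Gly1-ACC at -0.41, Cys19-GCA at -0.33, Gly12-TCC at -0.31 and Thr9-CGT at -0.31. The lower scarce rows were Cys17-GCA at -3.02, Ala22-CGC at -1.62, Gln6-CTG at -1.57, Ala10-AGC at -1.55, Ala24-CGC at -1.49, Ala21-CGC at -1.43, Glu5-CTC at -1.37 and Ala23-CGC at -1.30.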

How the results depend on the processing

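The calls were recomputed in 16 other settings, 6 of them with 1 mouse left out. No called value changed sign in any of the 16, and none of the 40 called values, over rows, families and amino acids, was called in every one. Rows called higher and lower were 6 and 16, with 3 and 10 under TMM over the 12 libraries, 9 and 7 under TMM within each library kind, and 1 and 8 with no replicate block, that is without pairing by mouse. In limma on the log2 ratios of each mouse they were 0 and 0, with 23 rows at an unadjusted p under 0.05. With a mean-variance trend in limma, added after seeing the data, they were 6 and 16 again. Families called higher and lower were 5 and 7, with 4 and 3 under TMM over the 12 libraries, 3 and 3 under TMM within each library kind, 1 and 8 under DESeq2 size factors, 4 and 11 in DESeq2 and 0 and 0 in limma, where 12 had an unadjusted p under 0.05. Amino acids called higher and lower were 4 and 2, with 1 and 4 under TMM over the 12 libraries, DESeq2 size factors and DESeq2, 3 and 1 under TMM within each library kind, and 4 and 4 with no filter. They were 1 and 0 in limma, and 0 and 0 in edgeR with no replicate block, where 6 had an unadjusted p under 0.05.

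With 1 mouse left out, rows called higher ran from 1 to 5 and lower from 2 to 16, families higher from 1 to 6 and lower from 1 to 7, and amino acids higher from 0 to 3 and lower from 0 to 3. Rows called in either direction were 5 with WT mouse 2 left out and 3 with KO mouse 2 left out. Families were 2 without either of these mice and 6 without WT mouse 3. Amino acids were 1 with WT mouse 2, 3 with WT mouse 3 and 0 with KO mouse 3 left out, where 9 had an unadjusted p under 0.05.

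The median of all rows was -0.020 under TMM within each library kind, against -0.18. The median of families was 0.020 under TMM over the 12 libraries, -0.12 under DESeq2 size factors, -0.115 in DESeq2 and -0.097 with no filter, against -0.04. That of amino acids was -0.12 under TMM over the 12 libraries, against -0.02.

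Changes of sign touched only values that had not passed. Leu9-TAA was 0.045 under TMM within each library kind and 0.062 in limma with or without a trend. Gln was -0.049 under TMM over the 12 libraries, -0.047 under DESeq2 size factors and -0.047 in DESeq2. Under TMM within each library kind Ile was 0.028, Ala 0.034, Pro 0.047 and Val 0.051, and Val was 0.0042 with no replicate block. With 1 mouse left out, Leu9-TAA ran from -0.76 to 0.46, Leu6-TAA from -0.0062 to 0.20 and Leu-TAA from -0.0036 to 0.20. SeC ran from -0.50 to 0.12 as a family and as an amino acid, Glu from -0.12 to 0.028, Ile from -0.14 to 0.080, Ala from -0.063 to 0.043, Pro from -0.074 to 0.055 and Val from -0.13 to 0.081. The cause of these changes was not tested.

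There were 3 mice a group, the spread of rows and amino acids was shared over all of them, and shares sum to a whole in each library, so a change of 1 abundant tRNA moves the others. Counting error was widest in rows near the minimum of 10 reads, Cys17-GCA among them.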
